A study of Arabidopsis thaliana with 12 samples.

Results

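The heat response described here is that of wild-type Arabidopsis thaliana seedlings of the accession Col-0, 10 days old, sequenced as 3 control libraries labelled 0 h and 3 libraries made after 2.5 h of heat. The members were taken by the labels alone and are 6 of the 12 libraries of the series. The other 6 libraries come from atdamt1, a mutant in a homolog of the putative adenine methyltransferase METTL4, with 3 in control and 3 after 2.5 h of heat. The temperature is not given in the sources used here, and no unheated library of 2.5 h is among the labels, so heat and elapsed time cannot be told apart. Whether the 3 libraries of a group were grown separately is not stated in the labels, and the p-values then measure only how far these libraries differ, which may be technical.

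Heat unfolds proteins, and plant cells answer within minutes through heat shock factors, which bind heat-shock elements in promoters and switch on chaperone genes. In the same hours seedlings are known to alter growth, sugar use, hormone synthesis and calcium signalling, and many messenger RNAs outside the chaperone set gain or lose abundance. A sequencing library has a fixed size, so strong gains of some transcripts lower the share left for all others, and the way libraries are scaled decides how many falls are counted.

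Depth was 21720000 to 23394000 reads in the wild-type libraries. Values are RPKM, read numbers corrected for the length of the gene model and the size of the library, as the authors deposited them. A change is the difference between groups on the scale log2(RPKM + 1), which understates the change of weakly expressed genes. It is given with its standard error (SE) from limma, and group means are given with the SD of 3 libraries. Genes that reached 1 RPKM in at least 3 of the 12 libraries were tested, 17628 of 32833, and a gene was called at a Benjamini-Hochberg adjusted p below 0.05. The verbs rose and fell are used of called genes only. The first principal component of the 6 libraries held 83% of the variance and separated heat from control. Heat library 2 stood apart in chloroplast-encoded transcripts, whose RPKM values summed to 24949, against 2436 to 6521 in the other 5, and heat library 1 stood apart in chaperone reads, given with the shares of reads. Mitochondrion-encoded transcripts summed to 674 to 889 RPKM after heat and 85.8 to 209 RPKM in control. Poly(A) selection makes organelle transcripts an uncertain measure, and their part in the results was not tested beyond adding the chloroplast-encoded share to the fit.

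On the deposited scale 1659 genes rose and 9267 fell, which is 9.41% and 52.6% of the genes tested and 62% together. The median gene moved by -0.41 on the log2 scale, and falls of about this size match the typical gene. Median-of-ratios scaling, which sets the typical gene to no change, brought the median to 0.01 and gave 5062 genes higher (28.7%) and 4715 lower (26.7%). The lower genes were 84.8% of the calls as deposited and 48.2% under median-of-ratios scaling. Of the 9267 deposited falls, 4715 (50.9%) were called lower under median-of-ratios scaling, 4481 did not pass, and 71 were called higher. TMM (trimmed mean of M values) kept 4657 of the falls, quantile normalization 4724 and scaling to the cytosolic ribosomal protein genes 4356. Dividing each library by its nuclear reads outside chaperones kept 8221 of the falls (88.7%), with a median of -0.33, and scaling to the median of 8 RT-qPCR reference genes kept 8053 (86.9%). Dividing by nuclear reads outside chaperones moved the median of all genes by 0.08. That total leaves out organelle-encoded reads and reads outside genes with a known length too, and the part of chaperones alone was not tested. Scaling to ribosomal protein genes moved the median by 0.29, quantile normalization by 0.38 and median-of-ratios scaling by 0.42. The factors of ribosomal protein scaling were 1.36, 1.16 and 1.01 in the 3 control libraries. Those of median-of-ratios scaling were 1.25, 1.25 and 1.20. How far the spread of the ribosomal factors, apart from their shift, ended calls was not tested. All 7 scalings called 3604 of the deposited falls (38.9%) and 1609 of the 1659 rises (97.0%).

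Median-of-ratios scaling moved changes upward, and by less in weakly expressed genes. The median went from -0.43 to -0.115 for genes under 5 RPKM in control, and from -0.21 to 0.30 for those of 100 to 500 RPKM. Small falls therefore had to lose their call, and the counts by size only show where that happened. None of the 1754 falls between 0.25 and 0.5 on the log2 scale was called lower under median-of-ratios scaling, against 41.3% of the 4504 falls between 0.5 and 1. Among the 2718 falls between 1 and 2 the share was 96.0%, and among the 249 larger falls it was 99.2%. The 5 most abundant genes that turned from lower to higher were all close to 0 on either scale. CYTB5-E, a cytochrome b5, had a change of -0.28 ± 0.094 as deposited and 0.24 under median-of-ratios scaling. For the RNA-binding protein LARP6B the values were -0.26 and 0.26, for the membrane protein AT1G74730 -0.24 and 0.27, for the mitochondrial ATP synthase subunit ATP5 -0.25 and 0.26, and for the RNA-binding protein RBP45B -0.23 and 0.29. For this reason the lists below are given on both scales. The base for their counts is all genes tested, 9.41% higher and 52.6% lower, or 28.7% and 26.7% under median-of-ratios scaling. Each value is as deposited unless median-of-ratios scaling is named. In bulk seedlings, fewer cells of a type and less RNA per cell cannot be told apart.

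**Figure D1:**
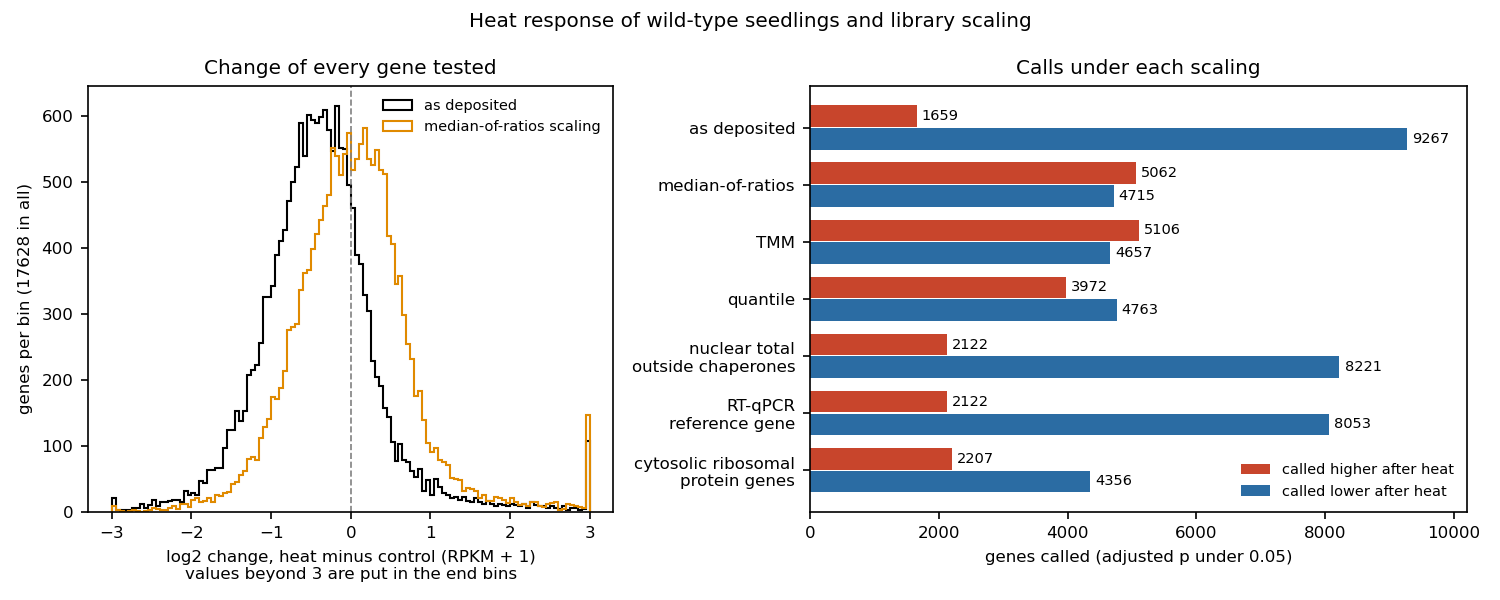
Left, the number of genes in each bin of log2 change between heat and control, on the scale log2(RPKM + 1), as deposited (black) and after median-of-ratios scaling (orange), with a dashed line at 0. Right, the genes called higher (red) and lower (blue) under each of 7 scalings, from 1659 and 9267 as deposited to 5062 and 4715 under median-of-ratios scaling.

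What replaced what in the libraries was examined as the share of reads. Summed over the genes tested, 4030 genes gained 18.6% of the reads of a library and 13480 genes lost 20.7%. Of the 10 genes that gained most, 7 encode light-harvesting proteins of the photosystem antennae (LHCB1.3, CAB2, CAB3, LHCA4, LHB1B1, LHCA1 and LHCB3). LHCB1.3 went from 1.67% to 2.39% of reads, CAB2 from 0.122% to 0.594% and LHCA4 from 0.174% to 0.563%. These antenna genes have near-identical copies, so the split between CAB2, CAB3 and LHCB1.3 is uncertain. The chaperones among the 10 were the HSP70 gene MED37C, from 0.00197% to 0.342%, and CLPB1, from 0.00129% to 0.266%. RCA, which encodes the activase of the carbon-fixing enzyme Rubisco, went from 0.348% to 0.603%. The calls of LHCB1.3 ended under quantile normalization and with no filter, and those of the other 9 stood in the settings tried.

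The largest losses of reads included 3 genes for the small subunit of Rubisco. RBCS-1A went from 1.95% to 1.47%, RBCS-1B from 0.460% to 0.181%. The RPKM of RBCS-1A was 16610.0, 13136 and 16378 in the control libraries and 10780.0, 12020.0 and 11907 after heat, a change of -0.40 ± 0.15 (adjusted p = 0.0308). That call ended when any library but control 2 was left out, and under median-of-ratios scaling the change was 0.11 (adjusted p = 0.623). RBCS-1B had 2665, 2077 and 2541 RPKM in control and 941, 949 and 981 RPKM after heat, and its fall was called under both scalings (-1.33 and -0.82). The root-enriched beta-glucosidase BGLU23, a member of the indole glucosinolate list, went from 0.328% to 0.0566% of reads and the germin-like gene GER3 from 0.178% to 0.00499%. A ribosomal RNA locus, AT3G41768, spanned 1249.6 to 3286 RPKM after heat and 1818 to 5408 RPKM in control and did not pass (adjusted p = 0.197). AT1G09310 did not pass either (adjusted p = 0.0608), though quantile normalization called it lower (adjusted p = 0.00336). As deposited, the small-subunit gene RBCS-2B, the RNA-binding protein RBG7, the peroxidase PER42 and AT2G45180 fell by 0.702, 1.002, 1.12 and 0.94 on the log2 scale. Under median-of-ratios scaling RBCS-2B, RBG7 and AT2G45180 did not pass, and PER42 lost its call under ribosomal protein scaling.

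**Figure D2:**
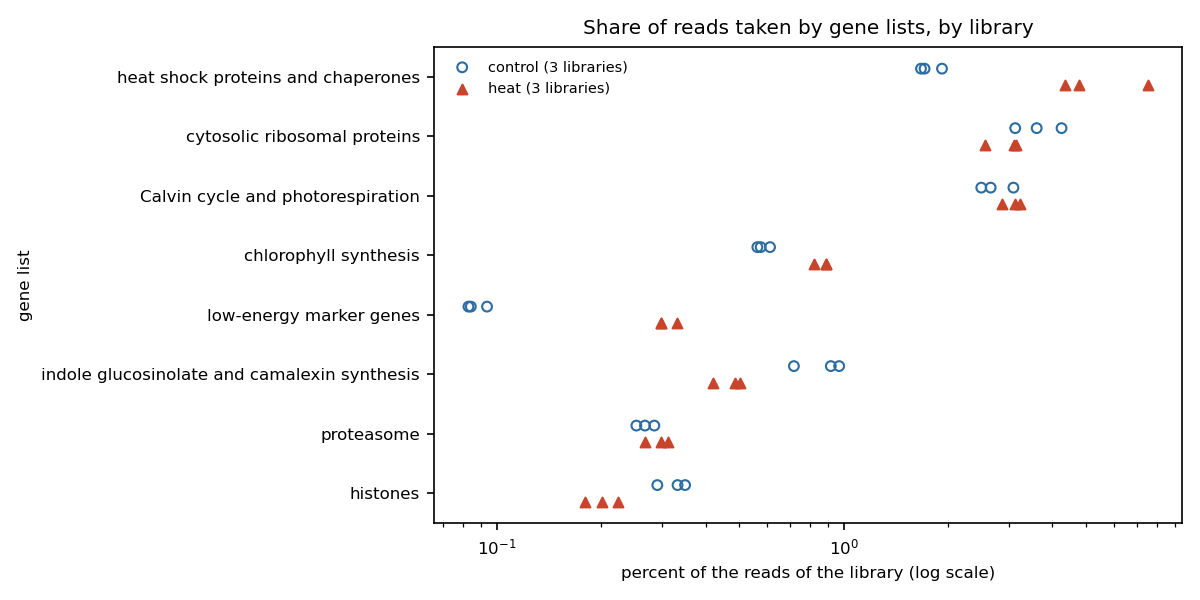
Percent of the reads of each wild-type library taken by 8 gene lists, on a log axis. Open circles are the 3 control libraries and triangles the 3 heat libraries. The chaperone list took 4.34% to 7.55% after heat and 1.67% to 1.92% in control, and the low-energy list moved as clearly at a lower level.

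By list, the heat shock proteins and chaperones took 1.77% ± 0.13 of reads in control and 5.55% ± 1.74 after heat. Heat library 1 held 7.55%, against 4.34% and 4.77% in the other 2. The same library gave the highest value of many of the heat-induced genes below. As deposited, the chaperone list did not rise as a whole. Of 243 members tested (293 matched) 68 rose and 90 fell, with a median of -0.18, and 108 and 46 under median-of-ratios scaling. The shares as deposited were 28.0% higher and 37.0% lower, against 9.41% and 52.6% of all genes. Under median-of-ratios scaling the median of the list was 0.32, against 0.01 over all genes, of which 28.7% were higher and 26.7% lower. The 24 low-energy genes went from 0.0867% ± 0.0059 to 0.308% ± 0.020 of reads, and chlorophyll synthesis from 0.584% ± 0.026 to 0.865% ± 0.038. Indole glucosinolate and camalexin genes went from 0.869% ± 0.133 to 0.470% ± 0.044, and BGLU23 alone carried most of that loss. Without it the list went from 0.540% ± 0.099 to 0.413% ± 0.022. Without DIN10, which moved most in the low-energy list, that list went from 0.0652% to 0.188%. Cytosolic ribosomal proteins went from 3.66% to 2.93% and histones from 0.323% ± 0.030 to 0.201% ± 0.022. With 3 libraries against 3, an exact permutation test cannot go below p = 0.1, so no p is given for these shares.

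Outside the chaperone list, the 12 largest rises that were called under 5 scalings included genes of transcription, calcium binding, protein turnover, vitamin B6 and amino acid metabolism. AT5G54165, annotated as an Avr9/Cf-9 rapidly elicited protein, had 0.581, 0 and 0.230 RPKM in control and 415, 165 and 184 RPKM after heat (log2 change 7.55 ± 0.37, adjusted p = 4.96e-08). The calmodulin-like gene CML44 had 0.326, 0.321 and 0.783 RPKM in control and 159, 98.2 and 102 RPKM after heat (6.33 ± 0.25). Every heat library lay above every control library for both genes, as the rule required, and heat library 1 was the highest.

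DREB2A, a transcription factor of the drought and heat responses, rose from 3.96 ± 0.652 to 364 ± 96.3 RPKM (6.18 ± 0.28). PDX12, a subunit of the complex that makes pyridoxal phosphate (vitamin B6), had 7.91, 7.32 and 5.18 RPKM in control and 529.8, 279 and 297 RPKM after heat (5.52 ± 0.27). The calcium-binding protein gene AT4G27280 stood out for the agreement of its heat libraries, which held 194, 195 and 189.8 RPKM, against 4.69, 4.13 and 5.55 in control (5.07 ± 0.13). FBS1, an F-box protein gene, was less even, with 147, 47.7 and 62.0 RPKM after heat and 2.12, 0.959 and 1.26 in control (5.002 ± 0.44), and heat library 1 held more than the sum of the others. MPSR1, an E3 ubiquitin ligase of misfolded proteins, rose from 6.51 ± 2.16 to 203 ± 19.5 RPKM (4.81 ± 0.24). The remaining rises of the 12 were MBF1C (6.98), a transcriptional coactivator, AT1G67360 (5.45), a REF/SRPP-like protein, AT1G66090 (5.40), a resistance-type protein, ASN1 (5.37) and AT5G35320 (5.08).

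The 12 largest falls by the same rule were GER3 (-5.13), the precursors of trans-acting siRNAs TAS1A (-4.30), TAS1C (-3.93), TAS1B (-3.83) and TAS2 (-3.36), HEL (-3.78), a hevein-like defence gene, and GLL23 (-3.68), of the GDSL lipase family. They also held the ER lectin chaperone CRT1 (-3.46), the GDSL lipase AT5G45950 (-3.45), AT1G62790 (-3.39), the cytochrome P450 CYP706A6 (-3.37) and AT3G06035 (-3.30). CYP706A6 had 43.1, 37.4 and 59.4 RPKM in control and 2.14, 4.61 and 4.22 RPKM after heat. TAS2 had 19.5, 21.4 and 21.1 RPKM in control and 0.950, 0.868 and 1.56 RPKM after heat. All 24 genes of these 2 groups kept their call in each of the 23 alternative settings. The scalings of the rule are among these settings and the genes were picked for large changes, so this was largely fixed by the choice.

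**Figure D3:**
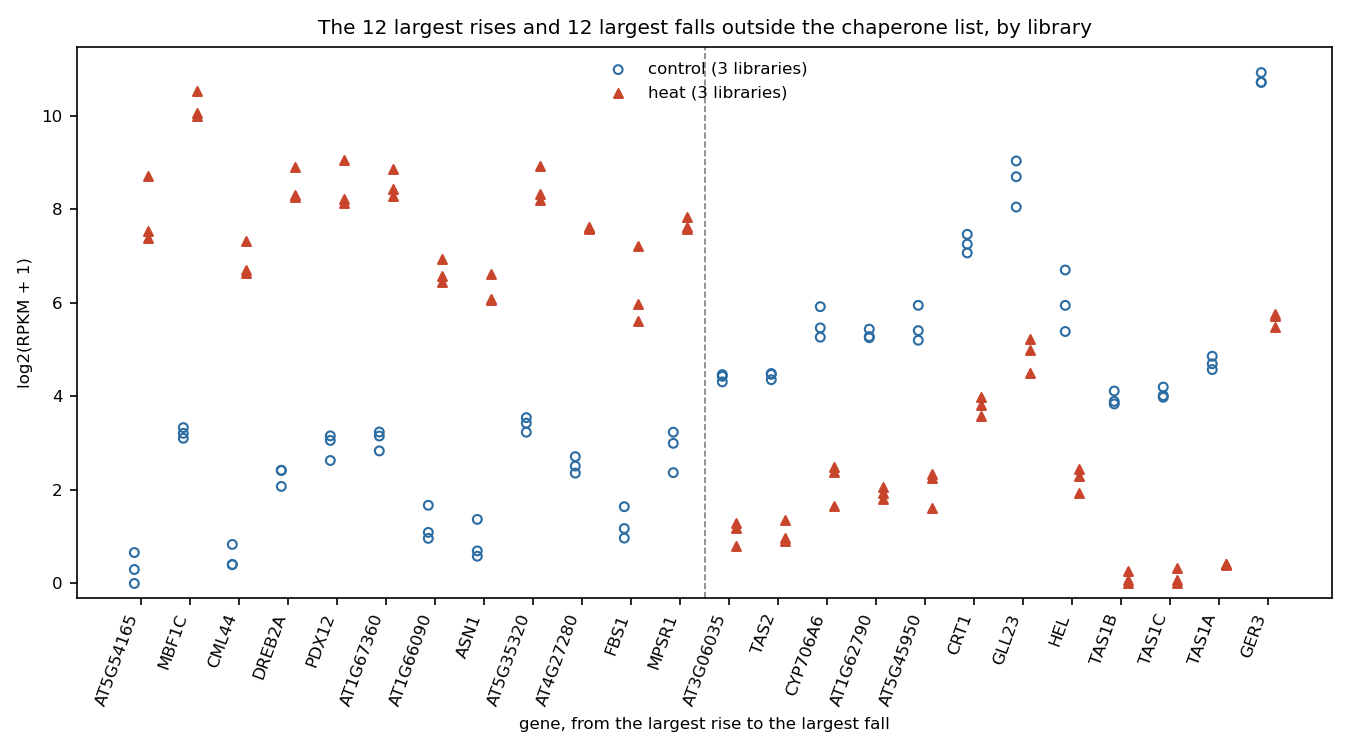
log2(RPKM + 1) in each wild-type library for the 12 largest rises (left of the dashed line) and the 12 largest falls (right) outside the chaperone list. Open circles are the 3 control libraries and triangles the 3 heat libraries. The rule that picked the 24 genes required groups that do not overlap.

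Promoters were read from the TAIR10.1 genome as the 250 bases before the annotated start of each gene, for 17509 of the genes tested. The motif searched was the perfect heat-shock element, GAANNTTCNNGAA or TTCNNGAANNTTC, on both strands. Of all promoters 0.434% held it, against 8.82% (6 of 68) of chaperone genes that rose, 1.04% (16 of 1539) of the other genes that rose and 0.356% (33 of 9258) of the genes that fell. The shorter element of 2 units, GAANNTTC or TTCNNGAA, which overlaps the longer one, was in 15.7%, 27.9%, 19.0% and 15.6% of the same sets. Of the 12 largest rises, DREB2A alone held 3 units and 5 held 2 units, and of the 12 largest falls none held 3 units and 2 held 2 units. The promoters of 3 genes are shown, the one with the full element and those of a calcium-binding protein and an F-box protein gene with the shorter element. The capitals mark the element, and each is written 5′ to 3′ on the strand of its gene.

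DREB2A, chr5:1601955-1602204, plus strand: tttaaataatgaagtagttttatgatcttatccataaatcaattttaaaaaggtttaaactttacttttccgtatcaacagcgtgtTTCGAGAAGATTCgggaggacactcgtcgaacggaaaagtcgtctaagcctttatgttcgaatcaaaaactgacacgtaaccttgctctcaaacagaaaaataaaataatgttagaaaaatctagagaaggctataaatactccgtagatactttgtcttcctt

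AT4G27280, chr4:13664622-13664871, minus strand: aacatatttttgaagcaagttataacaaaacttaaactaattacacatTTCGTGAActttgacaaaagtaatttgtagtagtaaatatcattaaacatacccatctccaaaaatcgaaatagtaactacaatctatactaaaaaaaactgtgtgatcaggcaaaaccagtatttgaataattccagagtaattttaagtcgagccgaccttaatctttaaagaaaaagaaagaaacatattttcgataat

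FBS1, chr1:22628014-22628263, plus strand: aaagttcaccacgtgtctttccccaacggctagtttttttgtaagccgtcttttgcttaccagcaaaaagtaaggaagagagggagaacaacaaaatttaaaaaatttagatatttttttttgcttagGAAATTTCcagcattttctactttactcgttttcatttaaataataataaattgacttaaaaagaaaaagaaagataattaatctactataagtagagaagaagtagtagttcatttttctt

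The element of DREB2A ends 151 bases before the start, that of AT4G27280 194 bases and that of FBS1 114 bases before it. A match is only a description of the letters, and MBF1C, PDX12 and ASN1 rose with no match in this window.

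Genes that mark low cellular energy formed the gene list with the highest median outside small heat shock proteins. These transcripts are known to accumulate in darkness or sugar starvation, under the kinase SnRK1 and bZIP transcription factors. Of 24 matched members 23 were tested, and 16 rose, 3 fell and 4 did not pass, with a median of 0.89 against -0.41 over all genes. Under median-of-ratios scaling 18 were called higher and 1 lower. ASN1, the asparagine synthetase induced in the dark, had 0.620, 1.58 and 0.498 RPKM in control and 96.8, 66.3 and 65.7 RPKM after heat (5.37 ± 0.21, adjusted p = 1.17e-08). STR15, also known as the dark-induced SEN1, rose from 6.82 ± 0.499 to 114 ± 23.7 RPKM (3.86 ± 0.26). AT1G80440, an F-box and kelch-repeat protein, had 14.6, 31.2 and 35.0 RPKM in control and 208, 215 and 221 RPKM after heat (3.04 ± 0.34).

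Enzymes that break down branched-chain amino acids rose with them; these members and PPDK were chosen after their values were seen. MCCA, a subunit of methylcrotonyl-CoA carboxylase, rose from 7.75 ± 0.757 to 43.4 ± 7.13 RPKM (2.33 ± 0.14), and its partner subunit MCCB by 0.48. BCE2 and DIN4, subunits of the branched-chain keto acid dehydrogenase, rose by 1.34 and 0.89, and the isovaleryl-CoA dehydrogenase gene IVD by 1.07. PPDK, pyruvate phosphate dikinase, rose by 1.496. The transcripts of the SnRK1 catalytic subunits KIN10 (0.15 ± 0.10) and KIN11 (0.023 ± 0.11), also chosen after their values were seen, did not pass as deposited. Both were called higher under median-of-ratios scaling, at 0.64 (adjusted p = 0.000259) and 0.51 (adjusted p = 0.00136), and under TMM and quantile normalization. BZIP11, a sucrose-controlled transcription factor, was the largest fall of the list, with 27.2, 20.8 and 21.2 RPKM in control and 4.89, 5.27 and 5.75 RPKM after heat (-1.93 ± 0.19).

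Sugar transport and trehalose genes were mixed, with 7 higher and 23 lower of 43 tested (50 matched), and 14 and 8 under median-of-ratios scaling. Their median was -0.54, and 53.5% fell, near the 52.6% of all genes. STP1, a monosaccharide importer, had 8.88, 16.6 and 20.03 RPKM in control and 99.9, 115 and 123 RPKM after heat (2.88 ± 0.31). The trehalose-phosphate synthase-like genes TPS8 and TPS11 rose by 1.51 and 1.42. TPPG, which removes the phosphate of trehalose 6-phosphate, fell from 6.81 ± 1.28 to 0.579 ± 0.102 RPKM (-2.30 ± 0.22). The sucrose exporter SWEET12 and the sucrose importer SUC1 fell by 1.46 and 1.11 on the log2 scale.

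Starch genes counted 7 higher and 14 lower of 29 tested (33 matched), and 13 and 2 under median-of-ratios scaling. Among the beta-amylases, which release maltose from starch, AT3G23920 had 9.32, 9.98 and 10.4 RPKM in control and 43.4, 34.9 and 33.2 RPKM after heat (1.80 ± 0.13). CT-BMY, a chloroplast beta-amylase, went the other way, with 98.3, 63.5 and 128 RPKM in control and 23.3, 26.1 and 25.5 RPKM after heat (-1.85 ± 0.19). No heat library of one of these 2 genes reached into its control range. Among all genes tested, 56% lay lower in all 3 heat libraries than in all 3 control libraries, and 11% lay higher. GBSS1, which makes amylose, rose from 0.657 ± 0.188 to 5.33 ± 1.09 RPKM, BAM9, an inactive beta-amylase, rose by 1.11, and the debranching enzyme gene ISA2 fell by 1.11 on the log2 scale.

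In the raffinose pathway, which makes protective oligosaccharides, 5 of 13 tested genes rose and 3 fell (19 matched; 7 and 2 under median-of-ratios scaling). DIN10, of the raffinose synthase family, had 72.3, 78.3 and 57.0 RPKM in control and 414, 369.7 and 369 RPKM after heat (2.47 ± 0.12). GOLS1, a galactinol synthase, rose by 4.01 and the inositol 3-phosphate synthase gene IPS3 by 1.33. The alpha-galactosidases AGAL1 and AGAL2, which take raffinose apart, fell by 0.97 and 1.28 on the log2 scale.

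Chlorophyll is made from glutamate in a chain of steps inside the plastid. Of 29 tested genes of its synthesis (30 matched) 11 rose, 3 fell and 15 did not pass, with a median of 0.16, and counts of 25 and 0 under median-of-ratios scaling. HEMA1, the glutamyl-tRNA reductase at the entry to the pathway, had 41.3, 36.0 and 32.6 RPKM in control and 109, 162 and 137 RPKM after heat (1.85 ± 0.15, adjusted p = 1.57e-06). CHLH, the large subunit of magnesium chelatase, had 91.4, 95.9 and 96.5 RPKM in control and 197, 247 and 249 RPKM after heat (1.27 ± 0.13). The cyclase gene CRD1 rose from 337 ± 30.7 to 1033 ± 97.3 RPKM (1.61 ± 0.12). For all 3 genes heat library 1 was the lowest of the heat libraries, unlike the chaperones. The protochlorophyllide reductases PORA and PORB, chosen after their values were seen, rose by 1.14 and 1.08.

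Among genes of chlorophyll breakdown and senescence 5 rose and 6 fell of 17 tested (22 matched; 8 and 2 under median-of-ratios scaling). The chlorophyllase CLH1 fell from 44.5 ± 15.4 to 7.98 ± 1.07 RPKM (-2.29 ± 0.27) and the chlorophyll b reductase NYC1 by 1.03 on the log2 scale, while SAG20 rose by 1.14. Carotenoid and isoprenoid genes counted 7 higher and 7 lower of 26 tested (27 matched), and 17 and 0 under median-of-ratios scaling. The zeaxanthin epoxidase ZEP rose by 1.01, and DXS and ISPH, enzymes of the plastid isoprenoid route, by 0.81 and 0.65. In the Calvin cycle and photorespiration 5 of 35 genes rose and 8 fell, with 23 and 2 under median-of-ratios scaling. RCA had 1606, 1495 and 1867 RPKM in control and 2579, 3131 and 2900.3 RPKM after heat (0.79 ± 0.15), and the aldolase FBA2 rose by 0.73. CP12-2, a redox regulator of the cycle, fell from 559 ± 155 to 178 ± 13.8 RPKM (-1.61 ± 0.17), and the serine hydroxymethyltransferase SHM4 by 1.45 on the log2 scale.

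Light signalling had 22 genes higher and 25 lower of 60 tested (68 matched), and 30 and 15 under median-of-ratios scaling. ELIP1, an early light-induced protein of the thylakoid, had 4.89, 2.45 and 2.42 RPKM in control and 36.4, 26.0 and 28.6 RPKM after heat (2.92 ± 0.34). PKS4, a phytochrome and phototropin signalling protein, rose from 0.384 ± 0.249 to 6.52 ± 1.29 RPKM, and the B-box gene BBX17 by 1.73. GATA21, SPA3, a repressor of light responses, and the bZIP gene HYH fell by 1.81, 1.75 and 1.75 on the log2 scale.

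**Figure D4:**
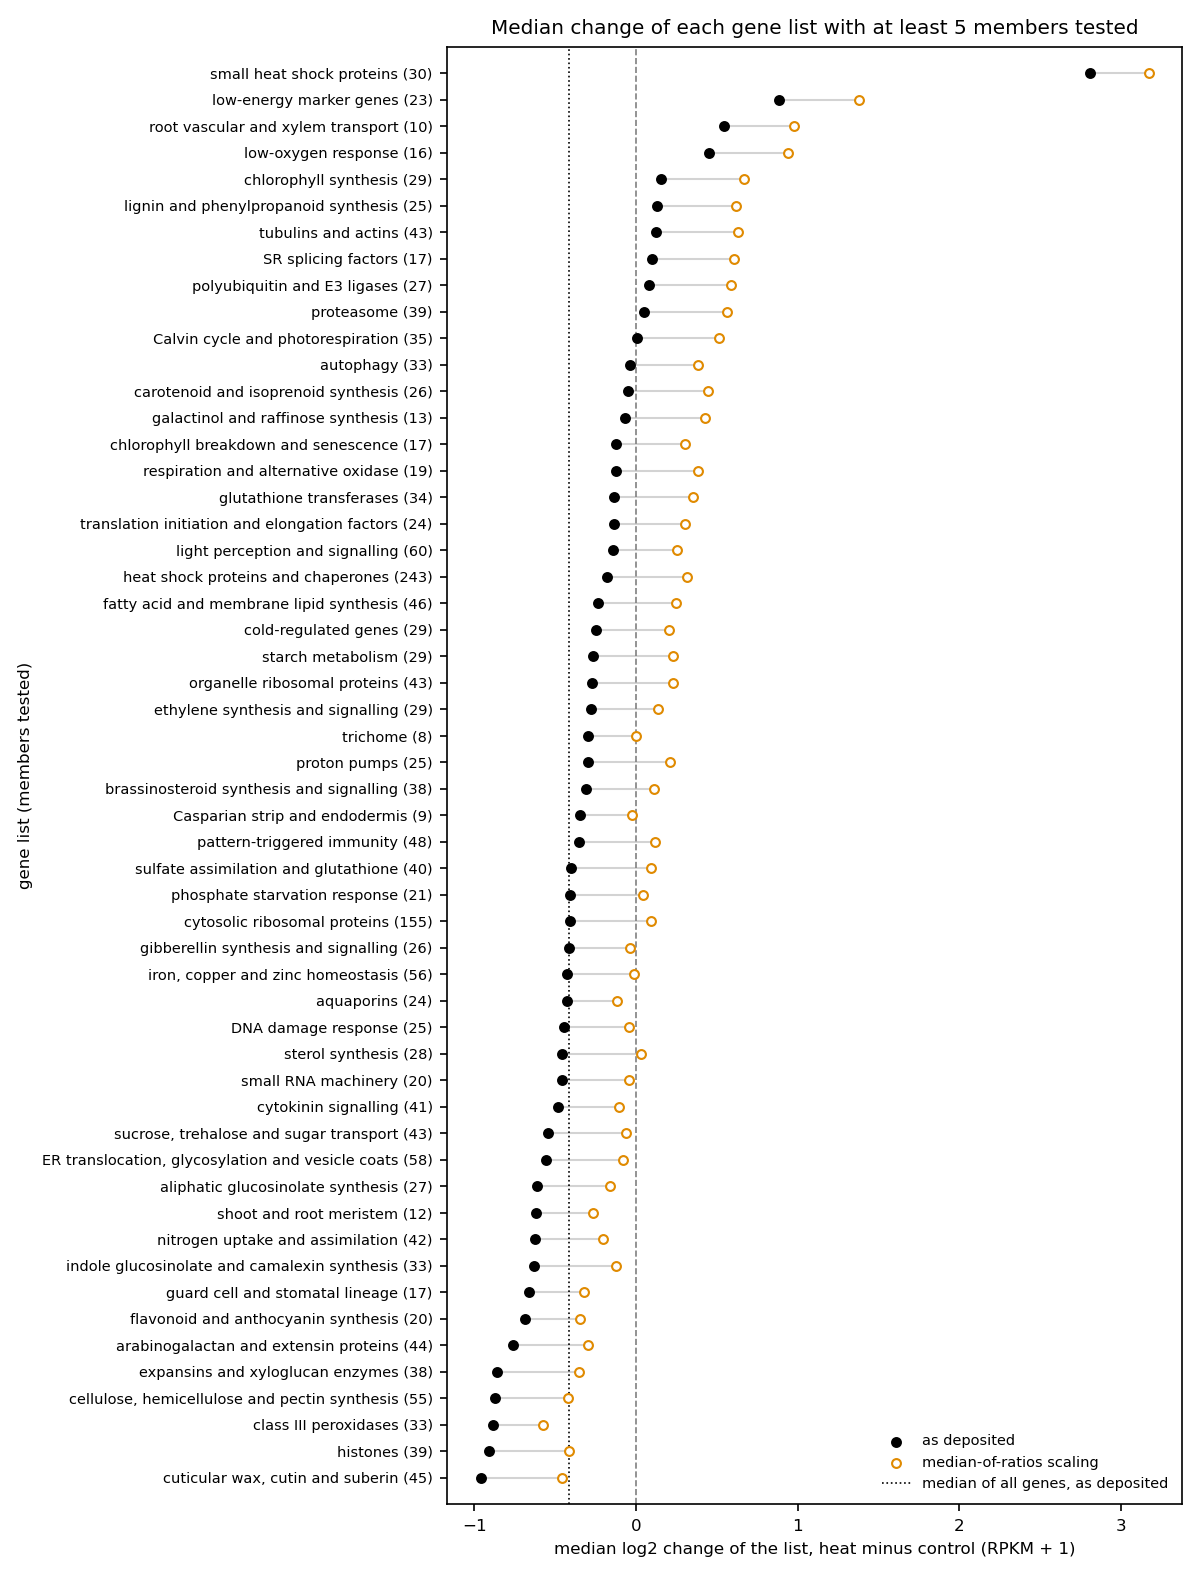
Median log2 change between heat and control of each gene list with at least 5 members tested, as deposited (filled) and under median-of-ratios scaling (open); the number tested stands beside each name. The dotted line is the median of all genes as deposited, -0.41, and the dashed line is 0, and the medians as deposited run from -0.96 for wax to 2.81 for small heat shock proteins.

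Protein turnover and splicing stood above the median gene, and most of their calls depended on scaling. Of 39 proteasome genes tested (40 matched) 9 rose and 7 fell as deposited, and 32 and 1 under median-of-ratios scaling. RPN1A, a subunit of the regulatory particle, had 34.9, 33.9 and 32.9 RPKM in control and 58.2, 47.0 and 52.5 RPKM after heat (0.61 ± 0.092). RPN6 and RPT5A rose by 0.53 and 0.39. RPN3B fell by 0.698 on the log2 scale and did not pass under median-of-ratios scaling (-0.22). Polyubiquitin and ligase genes counted 8 higher and 4 lower of 27 (16 and 3 under median-of-ratios scaling), with UBQ10 at 435, 459.9 and 499 RPKM in control and 824, 932 and 812 RPKM after heat. The ubiquitin-conjugating enzymes UBC29 and UBC28 rose by 1.32 and 0.46, and the ligases HOS1 and PUB13 fell by 1.09 and 1.003 on the log2 scale.

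Autophagy genes, which deliver cell contents to the vacuole, counted 10 higher and 12 lower of 33, and 18 and 3 under median-of-ratios scaling. ATG8E, a membrane tag of the autophagosome, had 33.2, 31.1 and 37.8 RPKM in control and 83.6, 94.1 and 82.5 RPKM after heat (1.33 ± 0.13). ATG18A and ATG8F rose by 0.72 and 0.67, and the kinase gene ATG1A fell by 0.81 on the log2 scale, a call that ended under ribosomal protein scaling. Of 17 SR splicing factors 4 rose and none fell, and 15 were higher under median-of-ratios scaling. SR45A, which acts in splice site choice, had 25.4, 21.5 and 21.5 RPKM in control and 322, 169.9 and 181 RPKM after heat (3.18 ± 0.30), and RS2Z33 rose by 0.41. Tubulins and actins, often treated as stable genes, counted 9 higher and 8 lower of 43 (48 matched), and 33 and 1 under median-of-ratios scaling.

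Metal and sulfur genes changed in opposite directions within each list. Iron, copper and zinc genes counted 5 higher and 21 lower of 56 (71 matched), with 12 and 13 under median-of-ratios scaling. The copper transporter COPT6 had 51.2, 64.6 and 70.5 RPKM in control and 7.14, 14.9 and 13.9 RPKM after heat (-2.33 ± 0.22), and COPT5 fell by 2.06 on the log2 scale. CSD2, the chloroplast copper-zinc superoxide dismutase, fell by 2.46. CCH, a copper chaperone, rose from 35.9 ± 6.25 to 78.5 ± 10.7 RPKM (1.11 ± 0.18), the metallothionein MT3 rose by 1.07, and the nicotianamine synthase NAS3 by 1.72.

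Sulfate assimilation and glutathione genes counted 4 higher and 16 lower of 40 (44 matched), and 15 and 6 under median-of-ratios scaling. APR3, the adenylylsulfate reductase of the committed step, had 161, 177 and 184 RPKM in control and 30.2, 52.5 and 53.6 RPKM after heat (-1.96 ± 0.25). SAT1, a serine acetyltransferase of cysteine synthesis, fell by 1.28, and METK3, an S-adenosylmethionine synthase, by 1.59 on the log2 scale. LSU2, which rises when sulfur is low, rose by 1.47. Among 34 glutathione transferases tested (49 matched) 6 rose and 6 fell, with 12 and 1 under median-of-ratios scaling. GSTU5 had 86.4, 63.2 and 106 RPKM in control and 448, 300.1 and 324 RPKM after heat (2.07 ± 0.23), and GSTF8 and GSTU17 rose by 1.55 and 1.24.

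Glucosinolates are sulfur-rich defence compounds of the cabbage family. As deposited, neither branch had a larger share of falls than all genes, with 51.5% of the indole and 40.7% of the aliphatic list lower against 52.6%. The medians of the 2 lists lay lower than that of all genes under other scalings. They were -0.12 and -0.16 against 0.01 under median-of-ratios scaling, and -0.32 and -0.19 against -0.04 under quantile normalization. Of 33 indole glucosinolate and camalexin genes tested (40 matched) 2 rose and 17 fell, with a median of -0.63 and 7 and 10 under median-of-ratios scaling. MYB34, a regulator of the indole branch, had 18.2, 23.0 and 25.3 RPKM in control and 0.703, 2.19 and 2.40 RPKM after heat (-3.12 ± 0.29, adjusted p = 4.44e-06). CYP83B1, the P450 that commits indole oximes to the pathway, had 52.3, 86.2 and 119 RPKM in control and 7.42, 15.6 and 13.2 RPKM after heat (-2.71 ± 0.38). ESM1, which acts on glucosinolate hydrolysis, fell by 2.90 on the log2 scale, and NSP5, a nitrile-specifier protein, rose by 0.72. In the aliphatic branch 2 rose and 11 fell of 27 (30 matched), with 7 and 6 under median-of-ratios scaling. Its regulator MYB28 had 17.4, 19.6 and 15.1 RPKM in control and 2.21, 2.87 and 2.90 RPKM after heat (-2.33 ± 0.17), and the chain-elongation genes BASS5 and IPMI1 fell by 1.38 and 1.60.

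Pattern-triggered immunity genes counted 7 higher and 25 lower of 48 (57 matched), and 11 and 14 under median-of-ratios scaling. The share lower, 52.1%, was near the 52.6% of all genes. The transcription factor WRKY33 had 6.42, 5.70 and 10.1 RPKM in control and 92.4, 37.1 and 41.2 RPKM after heat (2.69 ± 0.34). WRKY40 rose by 2.17, with heat values of 33.3, 5.61 and 8.35 RPKM that were far apart, and PHI-1 by 2.41. The peptidoglycan receptors LYM1 and LYM3 fell by 1.83 and 1.97, and the resistance gene SNC1 by 1.74 on the log2 scale.

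Genes of the cell surface fell more often than they rose in each list described here, as did all genes tested (52.6% lower and 9.41% higher). The share lower was 69.1% for cellulose, hemicellulose and pectin synthesis, 60% for wax, cutin and suberin and 57.6% for class III peroxidases. It was 55.3% for expansins and xyloglucan enzymes, 52.3% for arabinogalactan and extensin genes and 45.8% for aquaporins. Wax, cutin and suberin genes, which waterproof the epidermis, had 2 higher and 27 lower of 45 tested (52 matched) and a median of -0.96, with 4 and 19 under median-of-ratios scaling. KCS5, a synthase of very-long-chain fatty acids, had 19.8, 27.1 and 26.9 RPKM in control and 3.70, 2.46 and 5.30 RPKM after heat (-2.44 ± 0.26). LTPG2 and LTPG1, lipid transfer proteins of wax export, fell by 2.16 and 1.88 on the log2 scale. MYB96, an activator of wax genes, rose by 0.77 (adjusted p = 0.0153), and that call ended without control library 1. Cellulose, hemicellulose and pectin synthesis counted 5 higher and 38 lower of 55 (57 matched), and 12 and 30 under median-of-ratios scaling. MUR3, a xyloglucan galactosyltransferase, had 10.2, 13.3 and 12.4 RPKM in control and 2.75, 2.69 and 2.62 RPKM after heat (-1.80 ± 0.11), and the receptor kinase FEI1 and the phosphodiesterase-like GDPDL4 fell by 1.75 and 1.95. CESA4, a cellulose synthase of secondary walls, rose by 1.26.

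Expansin and xyloglucan enzyme genes, which remodel walls, counted 4 higher and 21 lower of 38 tested (68 matched), and 5 and 14 under median-of-ratios scaling. XTH22 had 5.79, 6.44 and 5.70 RPKM in control and 134, 108 and 119.9 RPKM after heat (4.12 ± 0.11), while XTH31 had 76.1, 57.3 and 118 and 10.7, 15.6 and 11.5 RPKM (-2.59 ± 0.33). XTH23 and XTH24 rose by 3.05 and 1.51, and the expansins ATEXPA1 and EXPA15 fell by 2.51 and 2.39 on the log2 scale. Of 44 arabinogalactan and extensin genes tested (69 matched) 1 rose and 23 fell, with 6 and 16 under median-of-ratios scaling. FLA8 had 152, 242 and 202 RPKM in control and 26.2, 41.4 and 42.1 RPKM after heat (-2.41 ± 0.20), FLA7 fell by 1.98, and the single rise was LRX3 (1.02).

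Class III peroxidases, which build and stiffen walls, counted 1 higher and 19 lower of 33 tested (66 matched), and 1 and 11 under median-of-ratios scaling. PER66, the one that rose, had 4.20, 4.09 and 2.44 RPKM in control and 15.0, 27.2 and 21.7 RPKM after heat (2.27 ± 0.44), while PER32 and PER71 fell by 2.48 and 1.93 on the log2 scale. For aquaporins the counts were 2 higher and 11 lower of 24 tested (32 matched), and 6 and 7 under median-of-ratios scaling. The tonoplast channel TIP2-2 fell from 52.7 ± 29.4 to 8.96 ± 5.03 RPKM (-2.45 ± 0.51), SIP2;1 fell by 1.80, and the plasma membrane channel PIP2-7 rose by 0.62.

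Secretion and translation lists had medians from -0.56 to -0.14. Of 58 genes of ER translocation, glycosylation and vesicle coats (61 matched) 6 rose and 41 fell, with 15 and 22 under median-of-ratios scaling. The glycosyltransferases ALG10 and ALG9 fell by 1.70 and 1.53, and TIN1, a gene induced by tunicamycin, had 0.570, 0.989 and 0.322 RPKM in control and 29.0, 12.7 and 15.5 RPKM after heat (3.56 ± 0.34). Cytosolic ribosomal proteins counted 1 higher and 72 lower of 155 (168 matched), and 24 and 16 under median-of-ratios scaling. Their median as deposited was -0.41, level with all genes. Under quantile normalization 2 were higher and 77 lower, with a median of -0.40 against -0.04 over all genes. RPS2D fell by 1.504, the single rise was RPL18AA (0.49), and 46.5% of the list fell, against 52.6% of all genes. Of 24 translation factors (26 matched) none rose and 9 fell, with 12 and 4 under median-of-ratios scaling, and EIF4G and TIF3A1 fell by 1.35 and 1.03 on the log2 scale. Among plastid and mitochondrial ribosomal proteins, 1 rose and 19 fell of 43 (48 matched), and 20 and 1 under median-of-ratios scaling; the rise was AT5G24490 (1.01).

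Histone genes, which are used in DNA replication, had no rise and 30 falls of 39 tested (46 matched), and 5 and 21 under median-of-ratios scaling. The share that fell was 76.9%, against 52.6% of all genes. Their median was -0.91, and -0.41 under median-of-ratios scaling, where that of all genes was 0.01. The H2B genes AT2G28720 and HTB1 had 68.0, 79.3 and 90.6 and 94.5, 77.8 and 54.8 RPKM in control, and 18.2, 21.4 and 27.8 and 17.4, 19.7 and 28.3 RPKM after heat, and histone genes have near-identical copies. In the small RNA machinery none of 20 tested genes rose (27 matched) and 13 fell, with 2 and 5 under median-of-ratios scaling. As deposited 65% of this list fell, against 52.6% of all genes. Under median-of-ratios scaling its median was -0.04, near the 0.01 of all genes. DRB2, a double-stranded RNA-binding protein, fell by 1.73, and RDR6, the polymerase that copies the TAS precursors, had 6.76, 7.07 and 7.31 RPKM in control and 2.38, 2.098 and 2.80 RPKM after heat (-1.24 ± 0.10). AGO7, which acts on TAS transcripts, fell by 1.02 and AGO4 (0.24 ± 0.12) did not pass as deposited; both were chosen after their values were seen. AGO4 was called higher under each of the other 6 scalings, at 0.71 under median-of-ratios scaling (adjusted p = 0.000276).

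Hormone lists held members of both directions. Ethylene genes counted 7 higher and 14 lower of 29 (35 matched), and 11 and 10 under median-of-ratios scaling. The shares as deposited were 24.1% higher and 48.3% lower, against 9.41% and 52.6% of all genes. ACS6, a synthase of the ethylene precursor, had 4.18, 4.60 and 5.45 RPKM in control and 34.7, 48.9 and 46.2 RPKM after heat (2.94 ± 0.21). ACS7 and ACS11, of the same family, rose by 2.58 and 2.14, with heat values of ACS7 from 6.84 to 39.97 RPKM. EIN2, the central signalling protein, fell from 15.9 ± 2.11 to 5.68 ± 0.421 RPKM (-1.34 ± 0.12), and EOL1, which limits the synthases, and ETP1, which limits EIN2, fell by 1.47 and 1.25 on the log2 scale.

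Cytokinin signalling counted 3 higher and 21 lower of 41 (53 matched), and 9 and 13 under median-of-ratios scaling. The shares lower were 51.2% here, 44.7% for brassinosteroid and 46.2% for gibberellin genes, against 52.6% of all genes. The type-A response regulators ARR8 and ARR6, which cytokinin induces, had 11.6, 9.43 and 9.63 and 7.04, 8.42 and 10.7 RPKM in control, and 1.11, 2.13 and 1.91 and 1.90, 3.19 and 2.98 RPKM after heat. CRF2 fell by 1.74, while the type-B regulators ARR12 and ARR1 rose by 0.60 and 0.34. Brassinosteroid genes counted 5 higher and 17 lower of 38 (45 matched), and 11 and 10 under median-of-ratios scaling. BRH1 fell from 44.3 ± 9.91 to 5.91 ± 2.04 RPKM (-2.74 ± 0.24), the synthesis gene CYP85A2 fell by 1.53, and CYP90A1, an earlier step, rose by 0.86. Gibberellin genes counted 2 higher and 12 lower of 26 (36 matched), and 6 and 5 under median-of-ratios scaling, and GA3OX1, which makes the active hormone, rose from 1.27 ± 0.622 to 7.74 ± 0.137 RPKM (1.99 ± 0.21).

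Low-oxygen genes counted 6 higher and 2 lower of 16 tested (20 matched), with a median of 0.45 and 11 and 0 under median-of-ratios scaling. CML38, a calmodulin-like protein, had 1.298, 0.958 and 0.871 RPKM in control and 24.4, 15.8 and 15.0 RPKM after heat (3.22 ± 0.24), and LBD41 rose by 2.42. The fermentation genes ADH1 (0.59 ± 0.30) and PDC1 (0.22 ± 0.38), chosen after their values were seen, did not pass as deposited. ADH1 was called higher under median-of-ratios scaling (0.98, adjusted p = 0.0168), TMM and quantile normalization, and PDC1 under none of the 7 scalings. Respiration genes counted 4 higher and 6 lower of 19 (28 matched), and 9 and 2 under median-of-ratios scaling; the alternative NADH dehydrogenase NDA1 rose from 2.19 ± 0.264 to 13.6 ± 3.02 RPKM, and the uncoupling protein PUMP5 fell by 1.60 on the log2 scale. Nitrogen genes counted 4 higher and 21 lower of 42 (51 matched), and 11 and 14 under median-of-ratios scaling, with LBD39, a repressor of nitrate genes, falling by 1.72 and the amino acid importer AAP1 by 1.56. Phosphate genes counted 3 higher and 10 lower of 21 (31 matched, with 5 and 6 under median-of-ratios scaling). The shares lower were 50% for nitrogen and 47.6% for phosphate genes, against 52.6% of all genes. ZAT6 had 5.68, 6.25 and 8.48 RPKM in control and 85.4, 64.8 and 90.3 RPKM after heat (3.38 ± 0.22), and UBC24, an E2 enzyme that removes phosphate transporters, fell by 1.48.

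Among the remaining lists, flavonoid genes counted 3 higher and 11 lower of 20 (37 matched; 4 and 7 under median-of-ratios scaling), with the repressor ATMYBL2 rising by 1.87 and the glycosyltransferase UGT78D1 falling by 1.58. Lignin and phenylpropanoid genes counted 5 higher and 8 lower of 25 (34 matched; 10 and 3), PAL3 rising by 1.12 and UGT84A2 falling by 2.23. For sterol synthesis the counts were 1 higher and 15 lower of 28 (29 matched; 9 and 4). HMG1, the reductase that feeds the pathway, rose by 0.96, and SQE1 fell by 1.40. Fatty acid and membrane lipid genes counted 1 higher and 20 lower of 46 (49 matched; 19 and 6), with FAB2 rising by 0.36 and PAH2 falling by 1.17. Of 29 cold-regulated genes (31 matched) 5 rose and 11 fell (9 and 5 under median-of-ratios scaling), and the lipocalin TIL had 61.5, 59.6 and 65.4 RPKM in control and 607, 376 and 395 RPKM after heat (2.83 ± 0.22). CAX1, a vacuolar calcium exchanger of that list, fell by 1.38 on the log2 scale. DNA damage genes had no rise and 16 falls of 25 (30 matched; 6 and 3), and proton pumps 2 rises and 12 falls of 25 (32 matched; 10 and 4). As deposited 64% of the DNA damage list and 48% of the proton pump list fell, against 52.6% of all genes.

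**Figure D5:**
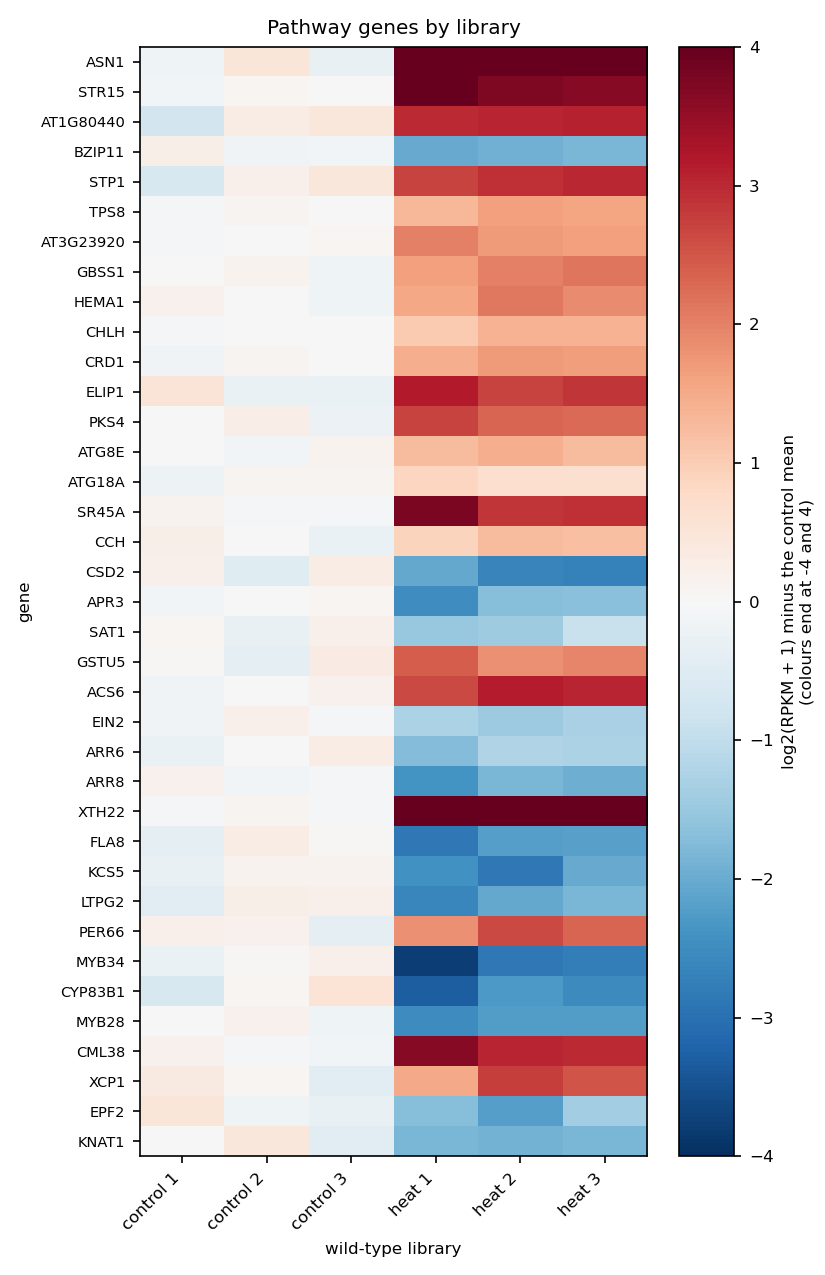
Difference of log2(RPKM + 1) from the mean of the 3 control libraries for 37 genes of the pathways described, one column for each wild-type library; red is higher and blue lower, and the colours end at -4 and 4. The 3 heat libraries share their direction for each gene shown. The genes were picked from called genes with large changes, so this was largely fixed by the choice.

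Tissue markers were read against the label of whole seedlings: leaf genes such as RBCS-1A and LHCB1.3 and the root gene BGLU23 were abundant in control, at 13136 to 16610.0, 12500.0 to 14255 and 1555 to 2039.6 RPKM. Root vascular and xylem markers counted 5 higher and 4 lower of 10 tested (13 matched), and 5 and 2 under median-of-ratios scaling. The xylem proteases XCP1 and XCP2 had 4.69, 3.66 and 2.32 and 5.78, 5.23 and 3.90 RPKM in control, and 11.7, 29.1 and 24.4 and 21.8, 41.9 and 29.4 RPKM after heat. The phloem regulator APL rose by 1.01. The secondary wall synthase CESA7 rose by 1.38 and the cytokinin receptor AHK4 fell by 1.27; both were chosen after their values were seen. Guard cell and stomatal lineage markers had no rise and 10 falls of 17 (20 matched), and 3 and 7 under median-of-ratios scaling. The share that fell, 58.8%, was near the 52.6% of all genes. EPF2, a signal of early lineage cells, had 12.2, 7.50 and 6.77 RPKM in control and 1.94, 1.08 and 2.68 RPKM after heat (-1.76 ± 0.27), the receptor TMM fell by 1.67, and the guard cell factor MYB60 by 1.27. The lineage factor SPCH (-0.63 ± 0.28), chosen after its values were seen, did not pass.

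Meristem markers had no rise and 7 falls of 12 (19 matched), and 1 and 5 under median-of-ratios scaling. The share that fell, 58.3%, was likewise near the 52.6% of all genes. KNAT1 had 8.95, 12.6 and 6.19 RPKM in control and 1.79, 1.70 and 1.79 RPKM after heat (-1.84 ± 0.22), and ATHB-14 and CLV1 fell by 1.08 and 1.06, while STM (-0.035 ± 0.31) and WOX5 (-0.27 ± 0.28), chosen after their values were seen, did not pass. Of 9 endodermis markers tested (16 matched) 1 rose and 1 fell, the transcription factor SCR by 1.88; of 8 trichome markers (15 matched) 1 rose and 2 fell. Of 22 root hair and epidermis genes matched, 4 passed the filter on low values, and 1 gene passed for flower and pollen (13 matched) and 1 for seed storage (18 matched). The part of tissue markers in the results for the pathway genes above was not tested.

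Against the heat response of atdamt1, no gene was called (0 of 17628, 0%), with 596 genes at an unadjusted p below 0.05 and a smallest adjusted p of 0.979 (limma). The same test found 0 genes under each of the other 6 scalings. A p that misses the threshold does not show that the 2 genotypes respond alike. Among the called genes named here, the differences furthest from 0, in wild type minus atdamt1 on the log2 scale, were -1.37 for PER32, 1.15 for NAS3 and -1.14 for PER71, and none passed.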

How the data were processed

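Poly(A) RNA was sequenced in 12 libraries, per the labels' protocols, with a kit that keeps strand. The authors deposited RPKM values for 32833 genes. The submitters' processing notes name STAR, DESeq2 and TAIR10, with neither role nor version. How reads were counted, and with which strand setting, is not given in the sources used here, so overlapping and antisense genes are uncertain. RPKM multiplied by exon-union length (TAIR10.1) gave whole reads in all 12 libraries for 24374 of 24599 genes above 0 (99.1%, within 0.1 reads), from which depth and read shares were computed. Replicates of a group differed by a chi-square per degree of freedom of 12.4 to 43.6, and none was merged.

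Limma 3.58.1 (R 4.3.3, mean-variance trend) fitted log2(RPKM + 1) in all 12 libraries with 1 mean per group and 8 residual degrees of freedom, two-sided. The fit was also run on simulated data without a shift of the typical gene, so that run says nothing about scaling. The members and the 57 gene lists (2495 entries matched to loci) were chosen with earlier results of these data known, 15 entries naming another gene were dropped, and chaperone names were completed after values were seen. A list is described by its counts and median, with no test. Genes were named by rule. The 12 rises and 12 falls were called under 5 scalings and lay outside the chaperone list. They had at least 10 RPKM in the higher group, and their groups of libraries did not overlap. Each list gave up to 3 rises and 3 falls with at least 5 RPKM in the higher group. The 10 largest gains and losses of reads and 5 genes that turned with scaling were also named. A further 19 genes were chosen after their values were seen. Promoters came from the genome, as no promoter table was used. Figures used Python 3.11.15 and matplotlib. Alternatives are in the closing section.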

Additional observations from a re-analysis of the deposited data

How the results depend on the processing

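The counts of called genes held within 1.5 times in most of the 23 alternatives, and library scaling moved them most. Genes called higher were 5062 under median-of-ratios, 5106 under TMM and 3972 under quantile scaling, and genes called lower were 4715, 4657 and 4763; scaling to ribosomal protein genes gave 6563 called and 4356 lower. Of the falls as deposited, quantile scaling kept 4724. Leaving out 1 library gave 9866 to 10389 called, 1410 to 1588 higher and 8278 to 8849 lower; the chloroplast-encoded share as a covariate gave 10375 called. The replicate block gave 10952 called (1676 higher, 9276 lower); same-numbered libraries did not deviate together (r from -0.118 to 0.00126), so the numbers were not taken as pairs. Changes that turned sign, under median-of-ratios, TMM and ribosomal protein scaling in that order, were those of CYTB5-E (0.24, 0.24 and 0.074), LARP6B (0.26, 0.26 and 0.093), AT1G74730 (0.27, 0.28 and 0.11), ATP5 (0.26, 0.27 and 0.10) and RBP45B (0.29, 0.29 and 0.12), and RBCS-1A under the first 2 (0.11 and 0.12). The cause was not tested. The ratio of heat to control in reads of low-energy genes was 3.55, and 3.19 with a plain RPKM sum. Leaving out the member that moved most, an alternative chosen after seeing the data, gave 2.89 for low-energy genes, 1.33 for chlorophyll synthesis, 1.03 for the Calvin cycle and 0.764 for indole glucosinolates. With an element of 2 units the promoter shares were 15.7% of all genes and 19.0% of the other genes that rose. Of the 213 called genes named, 199 were called in every alternative. The largest rises and falls were picked by calls under several of these scalings, so their part of this count was partly fixed. With 3 libraries a group, changes near the threshold rest on few values.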
